A study of Mus musculus with 12 samples.

Results

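The transcripts described here are 9 markers of the pyramidal cell fields of the hippocampus, out of 55487 genes counted in each library. They were chosen by name as known field markers, with earlier results of these data known, and matched by symbol to Ensembl identifiers. The list holds 4 genes of CA1 (Wfs1, Pou3f1, Fibcd1 and Spink8), 3 of CA2 (Amigo2, Rgs14 and Pcp4) and 2 of CA3 (Iyd and Bok). All 9 were found in the count files, and each had at least 69 counts in every library of the P14 hippocampus.

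The study sequenced RNA of single male mice carrying a targeted exon 7 of Auts2, a neurodevelopmental regulator, and of their controls, with 3 mice in each of 4 groups. In the first context, forebrain was taken at postnatal day 0 (P0) from Cmv-cre knockouts, in which Cre acts in all tissues, and from BL6 wild-type littermates. In the second, hippocampus was taken at postnatal day 14 (P14) from Nes-cre knockouts, in which the transgene acts in the neural lineage, and from controls labelled auts2-ex7-fl-het. The labels do not say whether these controls carried Nes-cre, so an effect of the transgene and of the second targeted allele cannot be told apart at P14. Age, tissue, Cre line and control genotype all change between the contexts and cannot be told apart either.

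The hippocampus relays signals from the dentate gyrus to CA3 and from there to CA1, with CA2 as a small field between them. The pyramidal neurons of each field share a common excitatory program and differ in a limited set of genes, which makes such genes useful as labels of a field in tissue RNA. In RNA from whole tissue, fewer cells of a field and less RNA per cell cannot be told apart. Several of these genes are also made outside the hippocampus, for example Wfs1 and Pcp4 in the striatum and cortex and Pou3f1 in developing cortical neurons.

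Total counts were 11247150 to 16796797 per P0 library and 16830720 to 23340621 per P14 library. Levels below are counts per 1000000 counts of the library (CPM), scaled with 1 set of TMM factors over all 12 libraries, and each triple of values gives replicates 1, 2 and 3. Differences and their SE are log2 fold changes from edgeR's quasi-likelihood test, and a gene was called when its Benjamini-Hochberg adjusted p over all genes tested was under 0.05. An exact two-sided permutation test of 3 against 3 mice cannot go below 0.1. Auts2 (chromosome 5, 131437333 to 132543344, minus strand, GRCm38) was at 97.4, 97.8 and 110 CPM in the P14 controls and 92.9, 77.5 and 75.1 in the libraries labelled knockout (log2 fold change -0.30, SE 0.09, edgeR adjusted p 0.111). At P0 it was at 160.2, 136 and 155 CPM in wild types and 164, 181 and 160.8 in knockouts (0.16, SE 0.08, adjusted p 0.362). Gene counts sum all isoforms, so these values do not check the loss of exon 7.

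At P14 both CA3 markers of the list were lower in the knockout hippocampus, and no CA1 or CA2 marker was called. Of the 4 CA1 markers 1 had an unadjusted p under 0.05 and DESeq2 called 0. Iyd fell 2.33-fold and Bok fell 1.35-fold. These 2 calls among the 9 markers stand beside 1.99% of 17208 genes called in either direction, and 0.773% called lower. Because the markers were chosen with earlier results of these data known, these shares only describe the list and do not test it. The share of all genes called depended on single libraries, and was from 0.595% to 10.3% with 1 library left out, lowest without knockout replicate 1 and highest without control replicate 3. By unadjusted p under 0.05, 5 of the 9 markers passed, beside 15.2% of all genes tested. The median log2 fold change of the 9 markers was -0.07, beside -0.01 over all genes tested. The groups did not overlap for Iyd, Bok and Amigo2, a separation that 20.0% of all genes tested showed.

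Iyd encodes iodotyrosine deiodinase, the enzyme that recovers iodide from iodotyrosines and is best known from the thyroid. The gene (ENSMUSG00000019762) lies on chromosome 10 from 3540240 to 3554877 on the plus strand of GRCm38. The P14 controls had 14.8, 9.43 and 10.1 CPM, from 256, 169 and 191 counts. The knockouts had 4.77, 4.73 and 5.08 CPM, from 96, 102 and 80 counts. Every knockout lay below every control, and the knockouts lay closer together than the controls did. Controls averaged 11.4 ± 2.92 CPM and knockouts 4.86 ± 0.192 CPM (SD, n = 3 each). This was a log2 fold change of -1.22 (SE 0.18, edgeR adjusted p 0.00259), with an exact permutation p of 0.1, the smallest possible. Control replicate 1 was the highest library, and the call remained without it and in each of the 13 alternatives run, with log2 fold changes from -1.34 to -0.998.

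Bok encodes a BCL-2 family protein related to the pore-forming cell death effectors Bax and Bak. It (ENSMUSG00000026278) lies on chromosome 1 from 93685660 to 93695764 on the plus strand. In P0 wild-type forebrain Bok averaged 45.5 ± 3.54 CPM (SD, n = 3), where Iyd had at most 7 counts per library. Bok RNA is thus not shown to be particular to CA3 here, and its cell source was not tested. The P14 controls had 118, 94.6 and 98.2 CPM, and the knockouts had 69.9, 78.5 and 79.1 CPM. All 3 knockouts were again below all 3 controls, with a narrower gap than for Iyd. Controls averaged 104 ± 12.5 CPM and knockouts 75.8 ± 5.15 CPM (SD, n = 3 each), a log2 fold change of -0.44 (SE 0.09, edgeR adjusted p 0.0170, exact permutation p 0.1). This call depended on single libraries. The adjusted p was 0.0757 without control replicate 1 and 0.144, 0.0612 and 0.0568 without knockout replicates 1, 2 and 3, with log2 fold changes from -0.34 to -0.47.

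The sequence around the RefSeq starts of both CA3 genes is shown because these were the called markers. Wfs1, a CA1 gene whose level was not called, is given for comparison. Each runs 5′ to 3′ on the gene's strand, from 250 bases before to 50 bases after the RefSeq start on GRCm38.p6. Capitals mark a match to CAGATG, an E-box form bound by neuronal basic helix-loop-helix factors, which is read on the opposite strand in both places.
Iyd, chr10:3540024-3540323, plus strand: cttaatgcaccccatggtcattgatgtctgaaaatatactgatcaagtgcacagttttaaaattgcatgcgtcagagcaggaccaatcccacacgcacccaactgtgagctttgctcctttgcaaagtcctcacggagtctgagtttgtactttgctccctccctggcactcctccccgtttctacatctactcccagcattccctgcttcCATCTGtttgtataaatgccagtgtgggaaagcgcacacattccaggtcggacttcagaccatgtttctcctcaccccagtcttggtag
Bok, chr1:93685325-93685624, plus strand: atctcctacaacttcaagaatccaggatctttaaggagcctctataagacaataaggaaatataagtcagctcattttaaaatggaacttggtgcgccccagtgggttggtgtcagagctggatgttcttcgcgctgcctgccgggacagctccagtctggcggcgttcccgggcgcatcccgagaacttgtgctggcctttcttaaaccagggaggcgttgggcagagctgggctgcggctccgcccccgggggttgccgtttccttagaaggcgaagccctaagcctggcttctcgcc
Wfs1, chr5:36988933-36989232, minus strand: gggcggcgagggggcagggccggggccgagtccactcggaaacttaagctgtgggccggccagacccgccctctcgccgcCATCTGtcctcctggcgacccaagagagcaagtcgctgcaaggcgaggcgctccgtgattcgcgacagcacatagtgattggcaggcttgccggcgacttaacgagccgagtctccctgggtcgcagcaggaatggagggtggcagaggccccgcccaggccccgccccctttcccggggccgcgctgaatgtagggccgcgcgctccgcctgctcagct
The match begins at position -39 in Iyd, where position counts from the RefSeq start, and at -170 in Wfs1. The Bok window holds none. The RefSeq starts of Iyd, Bok and Wfs1 differ from those of the GENCODE annotation, which gave the gene coordinates. The Bok window ends at 93685624, before the GENCODE start at 93685660. Part of the Wfs1 sequence before its RefSeq start lies within the GENCODE gene, which ends at 36989205. RefSeq promoters were found for 6 of the 9 markers, and Fibcd1, Amigo2 and Pcp4 had no match either. Among all 32851 promoters of the same length, 17.2% hold CAGATG on either strand. The other motifs searched on both strands were the octamer ATGCAAAT (1.74% of promoters), the E-box CAGCTG (16.3%) and the cAMP response element TGACGTCA (1.79%), and none was in the 6 windows. None of these motifs contains another, and a match is only a description of the letters. The windows differ in base composition. Iyd has 49% GC and 6 CpG, Bok 56.3% and 16, and Wfs1 70% and 30, beside medians of 52.7% and 7 over all promoters.

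**Figure D1:**
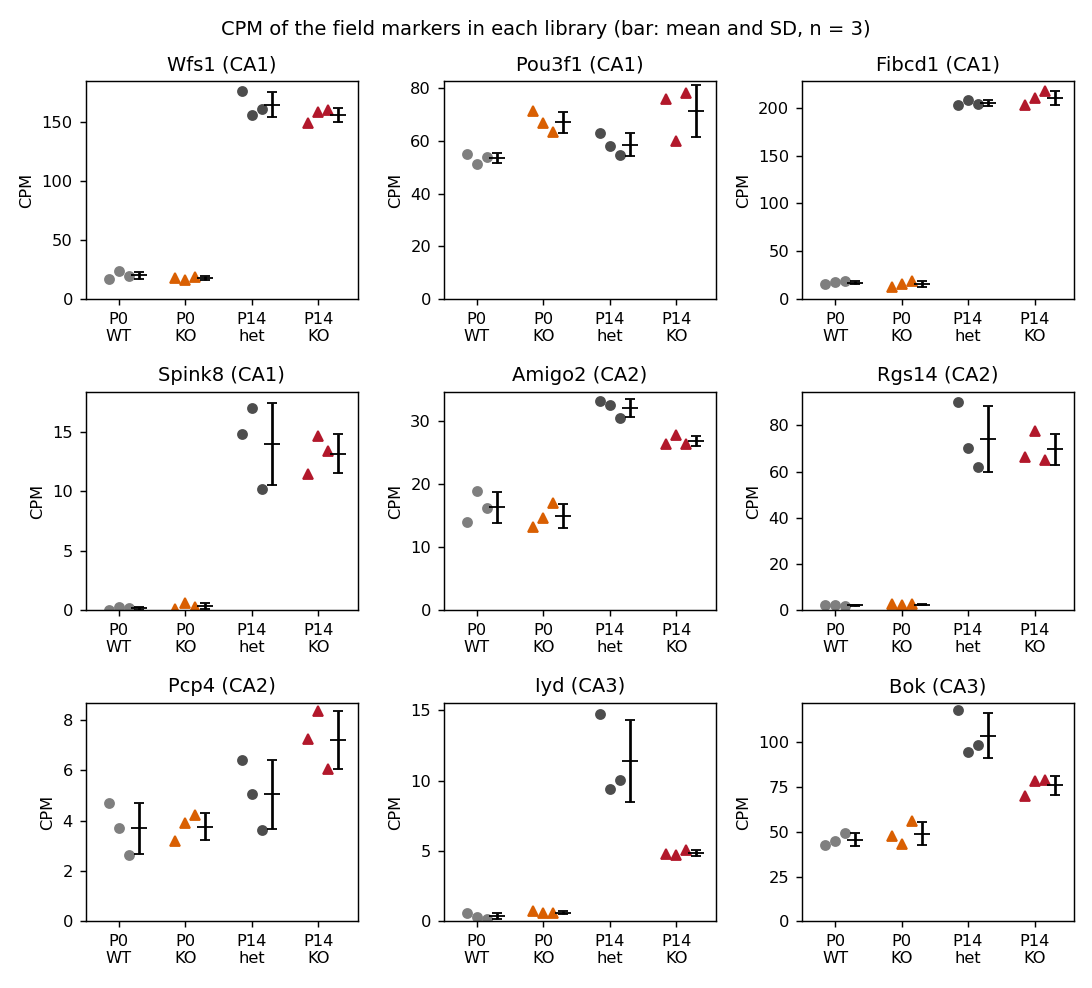
CPM of each marker (y axis, from 0, a separate scale per gene) in the 12 libraries by group (x axis); points are libraries, and the bars give the mean and SD of 3. At P14 the knockout points lie below all control points for Iyd, Bok and Amigo2, and overlap them for the other 6 markers.

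Among the CA1 markers, Wfs1 and Fibcd1 had the smallest SE of the 9. Wfs1 encodes wolframin, a membrane protein of the endoplasmic reticulum, on chromosome 5 from 36966104 to 36989205 (minus strand, ENSMUSG00000039474). It was at 177, 156 and 162 CPM in the P14 controls and 149, 159 and 160 in the knockouts. The groups overlapped, and the log2 fold change of -0.07 had an interval of 2 SE from -0.21 to 0.08 (edgeR adjusted p 0.728). Fibcd1 encodes a transmembrane receptor with a fibrinogen-like domain that binds acetylated structures such as chitin. It lies on chromosome 2 from 31813290 to 31846005 (minus strand, ENSMUSG00000026841), and it was at 203, 209 and 204 CPM in controls and 203, 210 and 218 in knockouts. Its log2 fold change was 0.05, with an interval of 2 SE from -0.09 to 0.18 (adjusted p 0.803). For both genes these intervals leave out a change as large as that of Bok. Spink8, a member of the Kazal family of serine protease inhibitors (chromosome 9, 109812280 to 109826633, plus strand, ENSMUSG00000050074), was less certain. Its levels were 14.8, 17.0 and 10.2 CPM in controls and 11.4, 14.6 and 13.4 in knockouts, with an interval from -0.41 to 0.27 around -0.07.

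Pou3f1 had estimates above 0 in both contexts without passing the threshold in either. It encodes a POU-domain transcription factor, also called Oct6 or SCIP, and lies on chromosome 4 from 124656807 to 124660655 (plus strand, ENSMUSG00000090125). At P14 it was at 63.0, 58.1 and 54.5 CPM in controls and 75.9, 60.0 and 78.0 in knockouts. Knockout replicate 2 lay within the control range, and the other knockouts lay above it. The log2 fold change was 0.30 (SE 0.10, edgeR adjusted p 0.159). At P0 it was at 54.9, 51.2 and 54.0 CPM in wild types and 71.2, 66.8 and 63.3 in knockouts. All P0 knockouts were above all wild types, and the log2 fold change was 0.32 (SE 0.08, edgeR adjusted p 0.0789, exact permutation p 0.1). The P0 value passed with DESeq2 (adjusted p 0.0434), without a filter on low counts (edgeR adjusted p 0.0311), with a term for the series of library numbers (0.0442), without knockout replicate 3 (0.0129) and within the 4 libraries of the first series (0.00312, log2 fold change 0.38). More genes were called overall in each of these settings, with shares of 2.32%, 1.99%, 2.87%, 4.69% and 12.9% of all genes tested. The P14 value passed without the filter (0.0241, with 2.48% of all genes called) or without knockout replicate 2 (0.0464, with 1.07%). Pou3f1 exons share 330 bp with the antisense gene Gm2164, which had a mean count of 18.4 beside 1019 for Pou3f1, and the counts used are not split by strand.

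The CA2 markers were not called at P14, and their estimates did not share a direction. Of the 3, 2 had an unadjusted p under 0.05 (Amigo2, lower, and Pcp4, higher), beside 15.2% of all genes tested. DESeq2 called 0 as well, beside 3.10% of all genes. Amigo2 encodes a leucine-rich repeat adhesion protein of the cell surface (chromosome 15, 97244125 to 97247287, minus strand, ENSMUSG00000048218). It was at 33.3, 32.6 and 30.5 CPM in controls and 26.4, 27.8 and 26.4 in knockouts. The groups did not overlap, while the log2 fold change of -0.25 (SE 0.09) had an edgeR adjusted p of 0.169. Without control replicate 3 it passed (adjusted p 0.0464), in a fit that called 10.3% of all genes. Rgs14, a regulator of G protein signalling that limits synaptic plasticity in CA2 (chromosome 13, 55369732 to 55384687, plus strand, ENSMUSG00000052087), was at 89.9, 70.2 and 61.9 CPM in controls and 66.4, 77.4 and 65.0 in knockouts. Here the groups overlapped and the log2 fold change was -0.07 (SE 0.12, adjusted p 0.838).

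Pcp4 encodes a small calmodulin-binding protein, PEP-19, and lies on chromosome 16 from 96467606 to 96525793 (plus strand, ENSMUSG00000090223). Its level here is uncertain. Of the 641 bases of its transcript Pcp4-201, 243 (37.9%) in 2 of its 3 exons also belong to Igsf5 on the same strand, and Igsf5 itself had 0 counts in every library. STAR's gene counting gives a read that overlaps exons of more than 1 gene to neither, so the Pcp4 counts can leave out reads of the shared exons. What remained was 6.41, 5.08 and 3.63 CPM in P14 controls and 7.25, 8.35 and 6.03 in knockouts. Knockout replicate 3 lay within the control range, and the log2 fold change of 0.54 (SE 0.21) was not called (edgeR adjusted p 0.216).

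**Figure D2:**
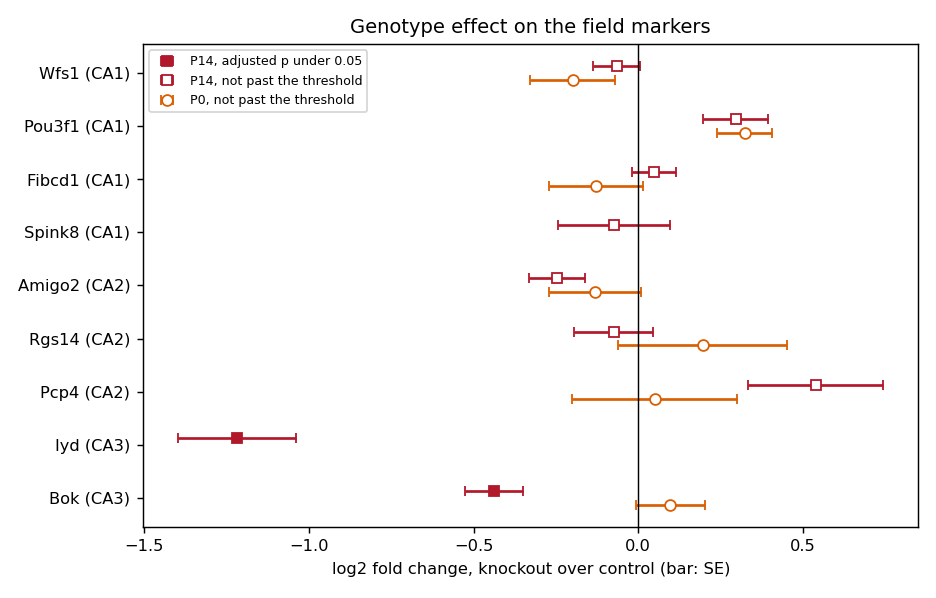
Log2 fold change of each marker, knockout over control (x axis), at P14 (squares) and P0 (circles), with bars of 1 SE; filled symbols passed the threshold. Only Iyd (-1.22) and Bok (-0.44) at P14 are filled, and Spink8 and Iyd have no P0 value because they did not pass the filter on low counts.

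The fields were also compared with one another within each library. The mean log2 CPM of the 2 CA3 markers was 5.09 ± 0.26 in P14 controls and 4.28 ± 0.07 in knockouts (SD, n = 3 each). That of the 4 CA1 markers was 6.18 ± 0.12 and 6.22 ± 0.06, and that of the 3 CA2 markers was 4.51 ± 0.24 and 4.58 ± 0.13. The CA3 level minus the CA1 level was -0.86, -1.33 and -1.05 in controls and -1.96, -1.92 and -1.94 in knockouts. Every knockout library thus had less RNA of these 2 CA3 markers relative to the 4 CA1 markers than any control. This restates the separation of Iyd and Bok and is no separate evidence on the field. No test was made of these means. Without Iyd and Spink8, the difference between the groups in this measure was -0.52 in place of -0.86. The knockout minus control difference of the CA2 mean moved from 0.07 to -0.17 when Pcp4 was left out, so its direction rests on the uncertain gene.

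Counts of single genes in 1 library give the same comparison without any scaling between libraries. For every 100 Wfs1 counts there were 8.35, 6.04 and 6.23 Iyd counts in P14 controls and 3.19, 2.98 and 3.17 in knockouts. Bok gave 66.6, 60.6 and 60.8 counts per 100 of Wfs1 in controls and 46.8, 49.4 and 49.3 in knockouts. The CA3 genes were also unequal between themselves. For every 100 Bok counts there were 12.5, 9.96 and 10.2 Iyd counts in controls and 6.82, 6.03 and 6.43 in knockouts, so the Iyd share was lower in every knockout library.

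**Figure D3:**
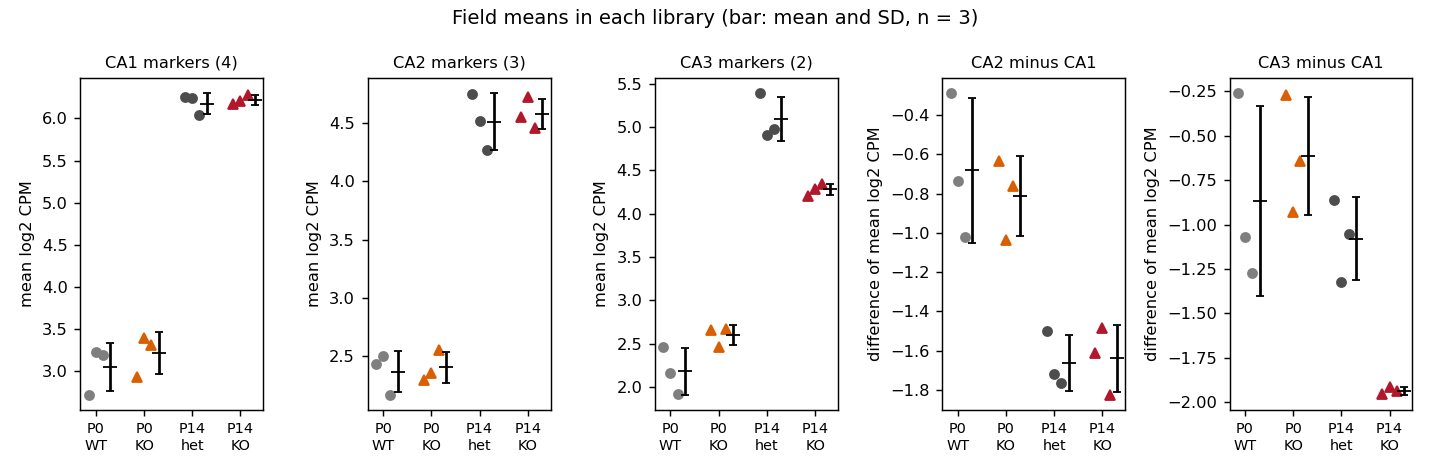
Mean log2 CPM of the CA1, CA2 and CA3 markers, and the CA2 and CA3 means minus the CA1 mean (y axes, a separate scale per panel), in each library by group; bars give the mean and SD of 3. The CA3 minus CA1 values of the P14 knockouts lie between -1.96 and -1.92, below all P14 controls.

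At P0, no field marker was called between knockout and wild-type forebrain. Of the 7 that passed the filter on low counts, edgeR called 0, 1 had an unadjusted p under 0.05, and DESeq2 called 1, Pou3f1. Over all 16176 genes tested, 0.909% were called (0.00604% to 4.69% with 1 library left out), 16.1% had an unadjusted p under 0.05 and 21.8% had groups that did not overlap, which Pou3f1 did and the other 6 did not. The log2 fold change was -0.20 for Wfs1 (SE 0.13), -0.13 for Fibcd1 (SE 0.14) and -0.13 for Amigo2 (SE 0.14). It was 0.20 for Rgs14 (SE 0.26), 0.05 for Pcp4 (SE 0.25) and 0.10 for Bok (SE 0.10). Bok, called lower at P14, was at 42.5, 44.6 and 49.4 CPM in wild types and 47.5, 43.2 and 55.8 in knockouts at P0, with an interval of 2 SE from -0.11 to 0.31. Iyd had 7, 4 and 3 counts in wild types and 9, 7 and 10 in knockouts, and Spink8 had 0, 3 and 4 against 1, 7 and 5. A change of these 2 genes was not detectable at this depth.

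The difference between the genotype effects at P14 and P0 was tested as an interaction term over all 12 libraries. Of the 7 markers that passed the filter on low counts in both contexts, Bok was called, where 2.04% of 15643 such genes were called in either direction and 0.479% with a negative difference. The P14 effect minus the P0 effect was -2.13 on the log2 scale for Iyd (SE 0.50, edgeR adjusted p 0.0305). Iyd entered this fit only through its P14 libraries and had at most 10 counts per P0 library, so this value says little of a P0 effect. For Bok the difference was -0.55 (SE 0.14, edgeR adjusted p 0.0493). Iyd passed in 9 of 17 alternatives and Bok in 6 of 17. With 1 library left out, the call of Iyd remained without P0 wild-type replicate 1, P0 knockout 3, P14 control 2 or 3, or P14 knockout 3, and ended without any of the other 7 (-2.63 to -1.68 over all 12). That of Bok remained without P0 wild-type replicate 3, P0 knockout 2 or P14 control 3, and ended without any of the other 9 (-0.63 to -0.44). For Pou3f1 the difference was -0.05, with an interval of 2 SE from -0.31 to 0.22 (adjusted p 0.914).

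Between the control groups, most field markers were higher in P14 hippocampus than in P0 forebrain. Of the 7 markers that passed the filter in both contexts, 5 were called higher, beside 33.0% of 15643 such genes. The log2 difference was 5.13 for Rgs14 (SE 0.16), 3.56 for Fibcd1 (SE 0.11) and 3.03 for Wfs1 (SE 0.10), which rose from 17.5, 23.5 and 19.7 CPM in P0 wild types. Bok (1.18, SE 0.10) and Amigo2 (0.97, SE 0.11) differed less. Iyd (5.06) and Spink8 (6.34) entered the fit only through P14, where they are high, and rest on at most 7 counts per P0 wild-type library. Pou3f1 (0.13, edgeR adjusted p 0.230) and Pcp4 (0.47, adjusted p 0.0919) were not called, with intervals of 2 SE from -0.06 to 0.32 and from -0.01 to 0.95.

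Levels were compared between genes per kb of exon. In P14 controls, Bok was highest with 56.3 ± 6.80 CPM per kb, followed by Wfs1 (43.5 ± 2.84) and Fibcd1 (43.2 ± 0.621), whose libraries overlapped. Rgs14 (17.5 ± 3.39), Spink8 (17.0 ± 4.23) and Pou3f1 (15.2 ± 1.11) came next and could not be ordered, as each overlapped its neighbour. Amigo2 had 10.2 ± 0.454, Iyd 7.04 ± 1.80 and Pcp4 4.91 ± 1.35, the last 2 overlapping (SD, n = 3 each). The Pcp4 level can be too low, since its counts can leave out reads of the exons shared with Igsf5. Its place in the order is therefore uncertain in every group. In P14 knockouts, Bok (41.2 ± 2.80) no longer stood above Wfs1 (41.2 ± 1.57), and Iyd (2.995 ± 0.118) was lowest. The mean of Fibcd1 (44.3 ± 1.52) was above that of Bok, but its libraries (42.8 to 45.8) overlapped those of Bok (38.0 to 43.0). In P0 wild types the order was led by Bok (24.7 ± 1.92) and Pou3f1 (13.9 ± 0.497), and Spink8 (0.188 ± 0.164) and Iyd (0.221 ± 0.131) were lowest, with overlap between them.

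**Figure D4:**
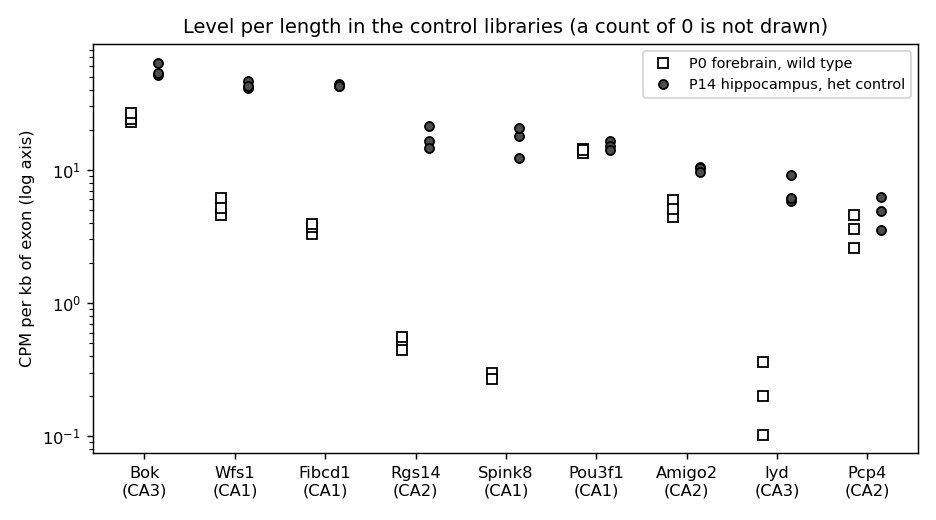
CPM per kb of exon (y axis, log scale) of each marker in the control libraries, with squares for P0 forebrain and circles for P14 hippocampus. Bok is highest in both, and Pou3f1 and Pcp4 lie closest between the contexts.

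The rest of each field was read from wider lists of marker genes, given as counts and medians with no test of a list. These lists were also chosen with earlier results known. Over all genes tested at P14, edgeR called 1.99% and DESeq2 3.10%, and 15.2% had an unadjusted p under 0.05. In P14 hippocampus 2 of 10 further CA3 genes fell and none rose, with a median log2 fold change of 0.02. These were Cpne4, a calcium-dependent phospholipid-binding copine (-0.35, SE 0.08, edgeR adjusted p 0.0352), and St18, a zinc finger transcription factor (-0.41, SE 0.10, 0.0452). Cpne4 passed in 8 of 13 alternatives and St18 in 4 of 13. The uncalled genes are named here after their values were seen. Below 0 were the kainate receptor subunit Grik4 (-0.06, SE 0.09), the adhesion protein Nectin3 (-0.05, SE 0.09) and Rnf182 (-0.20, SE 0.08). Above 0 were Col6a1 (0.36, SE 0.19), Coch (0.14, SE 0.15), Nnat (0.13, SE 0.08), Cdh24 (0.11, SE 0.12) and Plagl1 (0.09, SE 0.11). The summed level of the 10 genes was 1053 to 1073 CPM in controls and 1026 to 1103 CPM in knockouts. Nnat, the most abundant of them, made up 540 CPM of this in controls and 587 in knockouts, and the means of the other 9 summed to 524 and 479 CPM. These 9 include the 2 called genes, Cpne4 (158 CPM in controls and 123 in knockouts) and St18 (45.0 and 33.5). The lower sum is thus no sign of a fall in the uncalled genes.

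Of 7 further CA1 genes, 3 rose and none fell, with a median of 0.11, beside 1.99% of all genes tested called in either direction. The risers were Meis2 (0.98, SE 0.10, edgeR adjusted p 0.000234), Mpped1 (0.48, SE 0.08, 0.00500) and Pex5l (0.33, SE 0.07, 0.0176). The first 2 passed in all 13 alternatives and Pex5l in 8 of them. Meis2 is a homeobox factor also made by striatal neurons. In these P14 libraries 5 of 7 deep-layer and subplate cortical markers rose, with a median of 0.49, and their summed level was 137 to 145 CPM in controls and 187 to 205 in knockouts. Those with the smallest adjusted p were Foxp2 (2.27), Ccn2 (1.50), Cplx3 (2.85) and Fezf2 (0.49). The first 3 passed in all 13 alternatives, Fezf2 in 8 and the other called gene in 4. Among 6 striatal markers only the dopamine receptor gene Drd1 was called (1.46), and the median was 0.69. Of these 6, 5 had an unadjusted p under 0.05, beside 15.2% of all genes tested. The summed level was 48.3 to 62.0 CPM in controls and 73.8 to 121 in knockouts. No marker of either list was at 0 in the controls, and the part of neighbouring tissue in the CA1 values was not tested.

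Of 10 further CA2 genes, 9 were tested, and 1 fell and none rose, with a median of 0.06. The one that fell was Ntf3, which encodes neurotrophin-3 and is also made by dentate granule cells (-1.02, SE 0.20, edgeR adjusted p 0.0161). It passed in 9 of 13 alternatives. Among 11 dentate granule markers, 7 fell and none rose, with a median of -0.63, beside 0.773% of all genes tested called lower. Of these 11, 10 had an unadjusted p under 0.05, beside 15.2% of all genes tested. C1ql2 (-0.89), Prox1 (-0.76), Dsp (-0.93) and C1ql3 (-0.48) had the smallest adjusted p. Prox1 and Dsp passed in all 13 alternatives, C1ql2 in 12, C1ql3 in 11 and the other 3 in 4 to 10. The summed level was 455 to 508 CPM in controls and 306 to 326 in knockouts. Of 8 genes listed as shared pyramidal markers, edgeR and DESeq2 each called 0 and 0 had an unadjusted p under 0.05, with a median of 0.05. Whether each of them is made in every field, or only in pyramidal cells, was not tested. The dentate values move in the same libraries as those of Iyd and Bok, and their part in the CA3 values was not tested. The summed level of 6 choroid plexus markers ranged from 148 to 2529 CPM among the controls and from 1357 to 2015 among the knockouts. Lists of thalamic and interneuron markers had 1 of 5 and 1 of 6 genes called lower. These were Lef1 (-1.16, SE 0.21, edgeR adjusted p 0.00823) and Gad1 (-0.35, SE 0.08, 0.0284), which passed in 10 and 8 of 13 alternatives. DESeq2 called 2 lower in each list, and 3 in each had an unadjusted p under 0.05. For choroid plexus, astrocyte, oligodendrocyte, microglia and endothelial markers edgeR and DESeq2 called 0, and 0, 0, 0, 1 and 2 had an unadjusted p under 0.05.

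**Figure D5:**
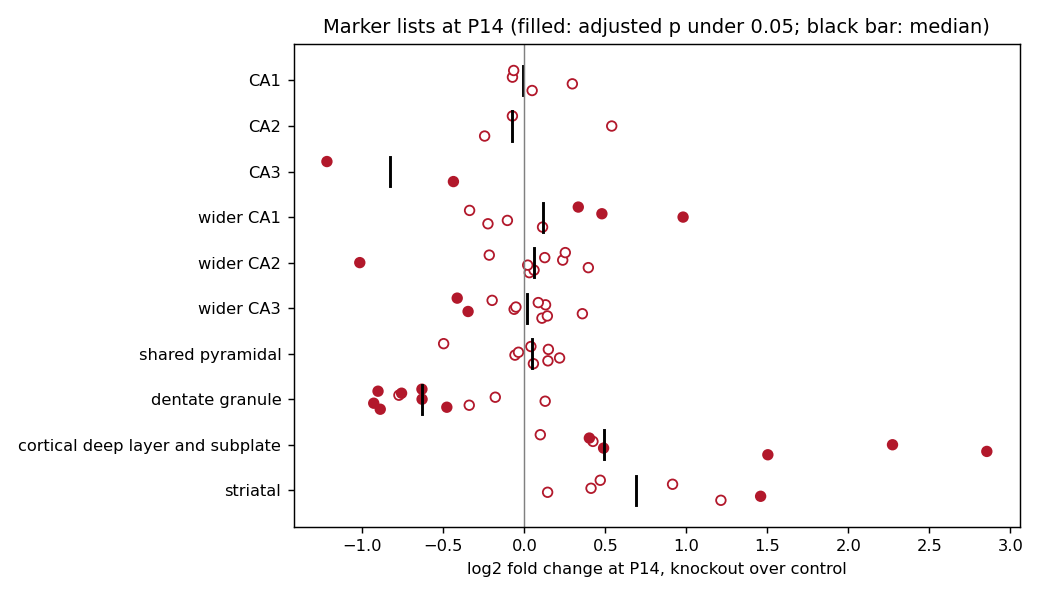
Log2 fold change at P14, knockout over control (x axis), of each gene in the field marker lists and in lists of neighbouring cell types (rows); filled points passed the threshold and black bars are medians. The CA3 pair and most dentate granule genes lie left of 0, and most cortical and striatal genes lie right of it.

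At P0 the wider lists gave 0 of 6 CA1 genes and 0 of 9 CA2 genes called. Over all genes tested at P0, edgeR called 0.909% and DESeq2 2.32%, and 16.1% had an unadjusted p under 0.05. Those with an unadjusted p under 0.05 numbered 3 and 1. With DESeq2, 2 of the CA1 genes and 0 of the CA2 genes were called. Among 10 CA3 genes, 6 had an unadjusted p under 0.05, DESeq2 called 2 lower and edgeR called 1. This was Cpne4 (-0.42, SE 0.09, edgeR adjusted p 0.0416), which passed in 9 of 15 alternatives, and it is the only gene of the 3 wider field lists called lower in both contexts. Among the listed shared pyramidal markers, the vesicular glutamate transporter gene Slc17a7 (-0.54) and the calmodulin-binding neurogranin gene Nrgn (-0.56) fell, each called in 8 of 15 alternatives. The 8 genes did not share a direction. Their median was 0.13, 6 had an unadjusted p under 0.05, and DESeq2 called 2 higher and 2 lower.

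The genes most like each field in pattern were taken over the 6 P14 libraries, by Pearson r of log2 CPM with the field's mean, among 13859 genes. They were Rpl41 (0.996), Rps15 (0.995) and Aggf1 (0.990) for CA1. For CA2 they were Sqstm1 (0.996), Cyp46a1 (0.994) and Cpe (0.990). For CA3 they were Acsl4 (0.996), Smoc2 (0.994) and Dcun1d4 (0.993). None of these 9 was called at P14. The values compared share each library's depth and scaling. With 6 libraries and 13859 genes searched, the highest r can lie near 1 for genes unrelated to a field. No test was made of r. With TMM factors fitted within each context 7 of the 9 were chosen again.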

How the data were processed

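RNA of 12 libraries, 3 individual mice per group, was sequenced as paired reads, per the labels' protocols. The deposited files hold raw counts per Ensembl gene, and the authors' file names give STAR's gene counting on GRCm38 with annotation release 102. STAR 2.7.5a and edgeR 3.12 are named in the submitters' processing notes. Of the 3 count columns, the unstranded one was used, since the larger strand column held only 50.0% to 50.1% of both. All rows named a gene. Symbols, coordinates and exon lengths came from GENCODE vM21 (GRCm38), which placed 55227 of 55487 genes. No genome was used, and GC content for the GC alternative came from the longest transcript (55141 genes).

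Counts were tested with edgeR 4.0.16 in R 4.3.3 (filterByExpr, TMM, estimateDisp, robust glmQLFit, glmQLFTest, Benjamini-Hochberg). P14 and P0 were fitted on their own 6 libraries, and the interaction and the control difference on all 12. Mice varied with a common biological coefficient of variation of 0.0998 (P14) and 0.104 (P0). The SE came from the coefficient and its F statistic. Log2 CPM used a prior count of 2. Printed CPM first used TMM factors fitted within each context. They were changed to 1 set over 12 libraries after values had been seen, because levels were to be compared across contexts. No overlap of a marker's groups changed. Auts2 at P0 separated by 160.2 against 160.8 CPM with 1 set and overlapped with factors within context.

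Replicates differed by more than sampling noise (chi-square per degree of freedom 2.93 to 17.5). Read counts are not independent molecules, so SE and intervals cover mouse and counting variation together. The code was tested on simulated data. Markers and lists were chosen with earlier results of these data known. Always named were the 9 markers and Auts2, then up to 4 called genes per list with the smallest adjusted p, and the 3 genes most like each field. Alternatives were RLE factors, DESeq2 1.42.0, no filter, non-robust fitting, the larger strand column, 1 fit on all libraries, a GC offset, the library number series at P0, and leaving out each library. Exon 7 and isoforms were not analysed here, and 1 gene of the wider CA1 list is not reported here.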

Additional observations from a re-analysis of the deposited data

Results flagged for a closer look

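The genotype effect of Bok differed between P14 hippocampus and P0 forebrain by the interaction test over 12 libraries. The difference was -0.55 (edgeR adjusted p 0.0493), and Bok had 506 to 923 counts per P0 library and groups that overlapped there. For Iyd the same term was -2.13 (edgeR adjusted p 0.0305), but Iyd had no more than 10 counts per P0 library and was not tested at P0, so it has no usable P0 effect. Over their alternatives the adjusted p ranged from 0.00323 to 0.166 for Iyd and from 0.00164 to 0.160 for Bok. Replicate pairs were unequal in distance. A chi-square of their counts, per degree of freedom, was 2.93 between P0 knockouts 1 and 2 and 12 and 11.9 between them and replicate 3, and 4.98 between P14 controls 1 and 2 and 17.5 and 12 with replicate 3.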

How the results depend on the processing

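Iyd at P14 was called in all 13 alternatives and Bok in 9 of 13, in all 7 that kept every library and in 2 of 6 that left one out. The P14 count of called markers was 2, and 3 with no filter (Pou3f1 gained). It was 1 to 3 when a library was left out, with Pou3f1 gained without knockout replicate 2 and Amigo2 without control replicate 3. These fits called 2.48%, 1.07% and 10.3% of all genes tested, beside 1.99% in the main fit. At P0 the count of 0 became 1, Pou3f1, with DESeq2 and with no filter. The same held with a term for the series of library numbers and within the 4 libraries of the first series. In that order these fits called 2.32%, 1.99%, 2.87% and 12.9% of all genes tested, beside 0.909% in the main fit. The P0 count was 0 to 1 when a library was left out, with 0.00604% to 4.69% of all genes called. The interaction count of 2, Iyd with its few P0 counts included, became 1 with RLE factors, non-robust fitting or the larger strand column, and was 0 to 2 when a library was left out. The control difference kept 7 to 8 calls, Iyd and Spink8 included. The causes were not tested.

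Of the marker values 16 changed sign, none called and with adjusted p of at least 0.609. With the larger strand column these were Spink8 at P14 (0.059), Pcp4 at P0 (-0.051) and the interactions of Wfs1 (-0.061) and Pou3f1 (0.072). With the GC offset it was Fibcd1 at P14 (-0.018), and within the first series Pcp4 at P0 (-0.25). With a library left out, the P14 values ranged from -0.26 to 0.094 for Spink8 and from -0.18 to 0.083 for Rgs14. The P0 values ranged from -0.15 to 0.26 for Pcp4, from -0.27 to 0.011 for Fibcd1 and from -0.011 to 0.18 for Bok. The interactions ranged from -0.00079 to 0.22 for Wfs1 and from -0.11 to 0.066 for Pou3f1. Without Pcp4, chosen after seeing the data, the P14 difference of the CA2 mean was -0.17 and that of CA2 minus CA1 was -0.21. Without Iyd and Spink8, also chosen after seeing the data, it was -0.44 for CA3 and -0.52 for CA3 minus CA1, and the P0 difference of CA3 was 0.10. Factors fitted within each context, likewise added later, left the CA3 minus CA1 difference at P14 at -0.86. No paired analysis was possible because the replicate numbers follow accession order and pair no mice. Counts of at most 10 per P0 library limit Iyd and Spink8 there.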
